A study of Mus musculus with 16 samples.

Results

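Galactocerebroside and sulfatide are the glycolipids that set myelin apart from other membranes. Their synthesis in the mouse corpus callosum was followed through 9 genes, Sptlc1, Sptlc2, Kdsr, Cers2, Degs1, Fa2h, Ugt8a, Gal3st1 and Aspa, before, during and after feeding of cuprizone (CPZ), a copper chelator that kills oligodendrocytes and strips the corpus callosum of myelin. The genes were chosen by name for their place in the pathway, with earlier results of these data known. The shares of all probes set beside their counts are thus descriptions and not tests. Every probe whose accession mapped to one of the genes was taken, which gave 15 of the 41153 probes and 9 of the 18737 named genes on the array. Total RNA was taken from the corpus callosum of male wild-type C57BL/6 mice, 7 to 8 weeks old when they entered the experiment, and hybridised to single-colour Agilent arrays, 16 in all. The untreated group (3 arrays) was kept on normal chow and matched in age and sex to the mice fed CPZ for 4 weeks. The other groups were fed CPZ for 2 weeks (3 arrays), for 4 weeks (4 arrays), or for 4 weeks followed by regular diet (6 arrays). The methods give 0.2% CPZ in the chow and the labels a range of 0.2 to 0.4%. The methods also give 2 times on regular diet, 2 days and 14 days, which the labels do not tell apart, so these 6 arrays form 1 group and are described array by array.

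Sphingolipid synthesis starts in the endoplasmic reticulum, where serine palmitoyltransferase joins serine and palmitoyl-CoA and a reductase turns the product into sphinganine. Ceramide synthases add a fatty acid, a desaturase completes ceramide, and oligodendrocytes use very long and 2-hydroxylated fatty acids, attach galactose and then sulfate. Mice that lack the galactose or the sulfate step form myelin that is unstable at the paranodes, and loss of FA2H or aspartoacylase causes disease of the white matter in humans.

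All values are log2 values from the authors' table, which were scaled to the 75th percentile of each array and have the median of the 3 untreated arrays as their zero, so that 0 is the untreated level and -1 stands for 50% of it. The arrays were taken by the sample names of the columns in that table. Of the 16 scanner files, 14 are recorded under another sample than the column they match, 13 of them under another group. Each column matched 1 scanner file with a Pearson's r of 1.0 across 21977 probes (next best at most 0.883), and the last number in the name of that file was the place of the column's sample in the series for 16 of 16. The share of probes well above background ran from 57.4 to 72.2%. It was lowest on untreated array 1.

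The genes fell into a pair of patterns along the pathway. Cers2, Fa2h, Ugt8a, Gal3st1 and Aspa lay below every untreated array on all 3 arrays at 2 weeks of CPZ and on all 4 at 4 weeks, at 8.18 to 27.9% of the untreated mean at 2 weeks and 11.8 to 32.1% at 4 weeks. Sptlc1, Sptlc2 and Kdsr overlapped with the untreated range at both times, and Degs1 stood between. With limma, 0 of the 9 genes were called at either time (a 2-fold or larger difference with a Benjamini-Hochberg adjusted p under 0.05), against 0.193% of all 27499 probes tested at 2 weeks and 0.175% at 4 weeks. At an unadjusted p under 0.05, 6 of 9 were lower at each time, against 5.08 and 5.03% of all probes. At least 2-fold lower, a count added after the data were seen, were 5 of 9 at each time, against 2.88 and 7.19% of probes. At 2 weeks 6 of 9 genes had every CPZ array below every untreated array, against 8.98% of probes, and at 4 weeks 5 of 9, against 4.71%. The median of the 9 differences was -1.84 at 2 weeks and -1.64 at 4 weeks, where that of all probes was 0.04 and -0.03. All 9 genes were above background on all 16 arrays with their brightest probe, and 14 of the 15 probes passed the filter on dim probes. The methods' test, an analysis of variance followed by Tukey's test for the pair, also called 0 of 9 when run over the groups of each fit. It called 0 of all 27499 probes at 2 weeks and 0 at 4 weeks, so it cannot set the members apart. The paper compared the 2 times on regular diet as separate groups. It lists Cers2 as down in demyelination and Gal3st1 as down in early remyelination. The methods give 3 to 6 mice for each condition, the range of the arrays in a group, but the labels do not tie an array to an animal. The number of arrays limits the precision.

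**Figure D1:**
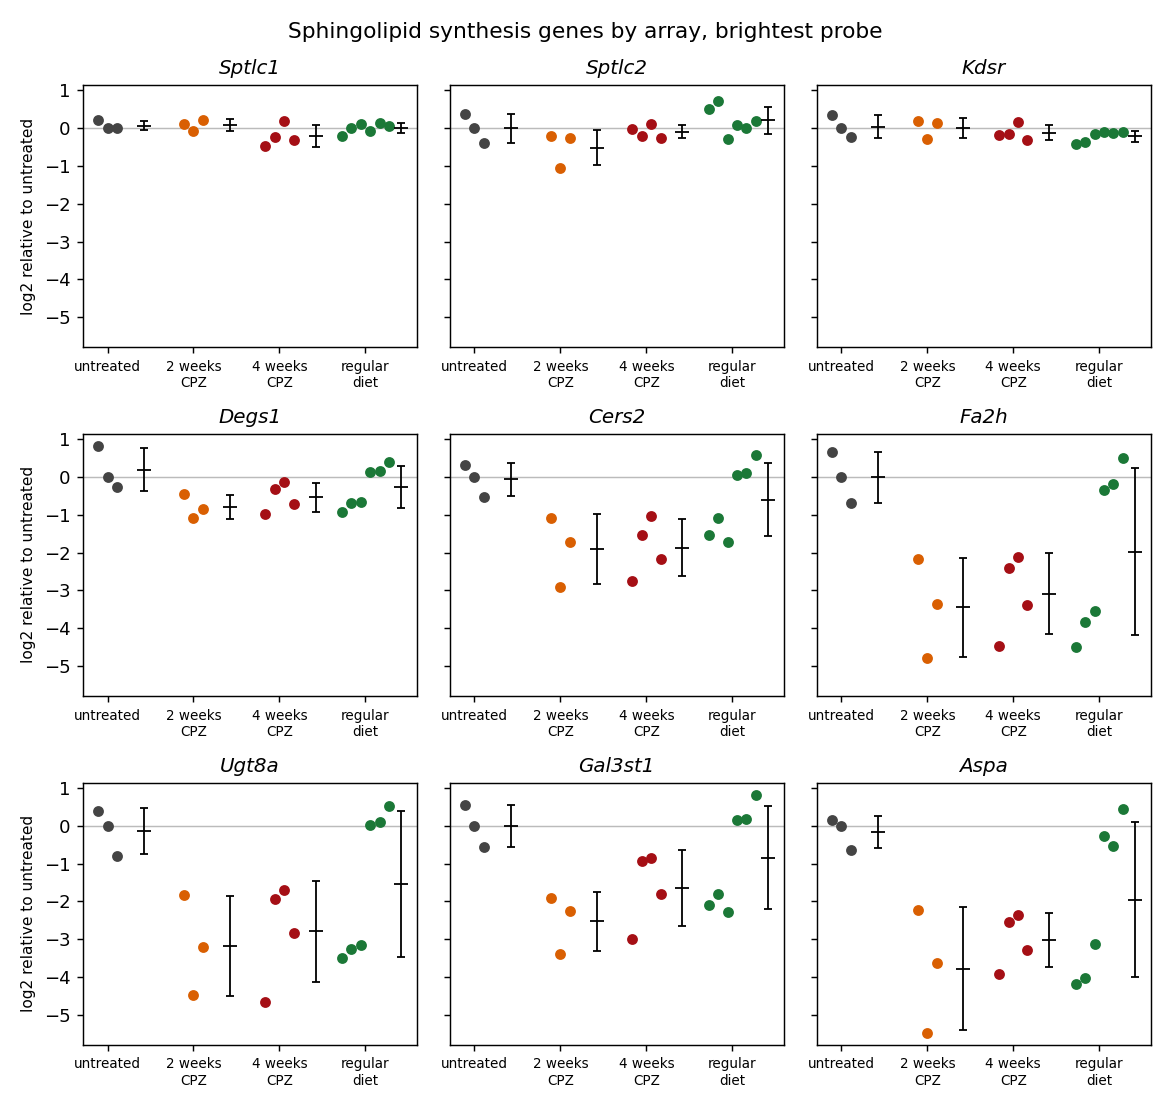
Log2 value relative to the untreated median (vertical axis) of the 9 genes on each of the 16 arrays, by group, for the brightest probe of each gene. Points are single arrays in order of replicate number, and bars show mean ± SD. Fa2h, Ugt8a and Aspa reached -4.47 or lower on the lowest CPZ array (Aspa -5.48), whereas Sptlc1 stayed between -0.48 and 0.22 on every array.

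The sequences upstream of the start sites are shown for a pair of genes that were lower under CPZ (Ugt8a and Gal3st1) and a pair that overlapped with untreated (Sptlc2 and Kdsr), to set the 2 patterns beside their promoters. They are the genomic strand of the gene, 5′ to 3′, from RefSeq on GRCm38.p6, ending just before the first base of the annotated gene. Capitals mark matches on either strand to one of 6 motifs. These were the GC box with the letters GGGCGG, the CCAAT box, and the TATA box with the letters TATAAA. The core bound by SOX factors was searched as ACAAAG. The core of the myelin factor MYRF was searched as CTGGNAC, and the E-box as CACGTG. The windows are chr3:125938683-125938902 (minus strand) for Ugt8a, chr11:3983386-3983635 (plus strand) for Gal3st1, chr12:87388356-87388605 (minus strand) for Sptlc2 and chr1:106759743-106759992 (minus strand) for Kdsr.
Ugt8a: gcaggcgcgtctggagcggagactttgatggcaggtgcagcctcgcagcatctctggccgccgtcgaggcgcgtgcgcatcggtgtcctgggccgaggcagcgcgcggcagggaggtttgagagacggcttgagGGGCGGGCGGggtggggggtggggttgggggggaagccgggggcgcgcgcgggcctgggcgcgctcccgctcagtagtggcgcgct
Gal3st1: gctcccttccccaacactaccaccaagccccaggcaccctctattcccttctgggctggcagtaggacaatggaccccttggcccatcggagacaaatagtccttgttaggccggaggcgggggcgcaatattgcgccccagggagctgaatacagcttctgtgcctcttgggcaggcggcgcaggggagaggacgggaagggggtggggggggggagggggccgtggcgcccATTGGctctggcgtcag
Sptlc2: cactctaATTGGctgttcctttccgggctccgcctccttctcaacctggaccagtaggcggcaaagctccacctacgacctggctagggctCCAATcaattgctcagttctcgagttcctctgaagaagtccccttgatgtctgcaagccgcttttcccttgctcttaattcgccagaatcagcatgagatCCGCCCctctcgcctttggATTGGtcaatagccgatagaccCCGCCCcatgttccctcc
Kdsr: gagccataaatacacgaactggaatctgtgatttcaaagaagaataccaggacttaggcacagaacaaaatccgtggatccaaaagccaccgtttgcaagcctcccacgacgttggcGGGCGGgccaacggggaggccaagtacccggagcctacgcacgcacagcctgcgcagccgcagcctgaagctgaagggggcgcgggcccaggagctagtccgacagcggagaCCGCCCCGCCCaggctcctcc

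Promoter windows were found for 8 of the 9 genes. Over the 250 bases before the start site, Ugt8a had a GC content of 76.8%, Gal3st1 of 65.6%, Sptlc2 of 55.2% and Kdsr of 61.6%, where the median of all 32851 mouse windows was 52.4%. The Ugt8a window held 3 GC boxes, of which 2 overlap in the stretch shown and the other lies in the last 30 bases, inside the annotated gene and not shown. The Kdsr window also held 3, of which 2 overlap, and the Sptlc2 window 2 GC boxes and 3 CCAAT boxes, whereas Gal3st1 had 1 CCAAT box and no GC box. A GC box stood in 32.7% of all windows and a CCAAT box in 33.8%. The single Aspa window had the lowest GC content of the 8 genes, 38.8%, with 2 CpG dinucleotides against 32 in Ugt8a. It held 1 CCAAT box and 3 TATA box matches, of which 2 overlap, where 12.4% of windows held at least 1 TATA box. All 250 bases of the Aspa window lay inside the annotated gene, as did the Degs1 and Cers2 windows and the third Gal3st1 window. A MYRF core was in none of the windows of the 8 genes and in 16.1% of all windows. No motif was shared by Cers2, Ugt8a, Gal3st1 and Aspa.

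Sptlc1 and Sptlc2 encode the subunits of serine palmitoyltransferase, the enzyme that commits the cell to sphingolipids. In the untreated group Sptlc1 read 0.21, 0.00 and -0.01. It read 0.11, -0.08 and 0.22 after 2 weeks of CPZ, and -0.48, -0.24, 0.19 and -0.32 after 4. The groups overlapped at both times. The difference from untreated was 0.02 at 2 weeks (SE 0.21, 95% CI -0.45 to 0.49, limma adjusted p = 0.989) and -0.28 at 4 weeks (SE 0.20, 95% CI -0.72 to 0.16, adjusted p = 0.746), so that a 2-fold change in either direction lay outside both intervals.

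The brightest Sptlc2 probe read 0.38, 0.00 and -0.39 on the untreated arrays and -0.21, -1.06 and -0.27 at 2 weeks. Array 2 of the 2-week group was the lowest of all 16, and the other 2 lay within the untreated range. At 4 weeks the values were -0.01, -0.21, 0.10 and -0.27. The difference was -0.51 at 2 weeks (SE 0.28, limma adjusted p = 0.72) and -0.10 at 4 weeks (SE 0.26, adjusted p = 0.937). The other 2 probes stood at -0.26 and -0.20 at 2 weeks, and at 0.30 and -0.37 at 4 weeks, opposite in sign.

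Kdsr encodes the reductase of the next step. Its brightest probe read 0.35, 0.00 and -0.25 on the untreated arrays, 0.20, -0.29 and 0.13 at 2 weeks and -0.18, -0.15, 0.16 and -0.32 at 4 weeks, with the groups overlapping. The difference was -0.02 at 2 weeks (95% CI -0.54 to 0.49, limma adjusted p = 0.987) and -0.16 at 4 weeks (95% CI -0.64 to 0.32, adjusted p = 0.88). The second probe had all 4 arrays at 4 weeks, from -0.48 to -0.13, below the untreated arrays, with a difference of -0.31 (SE 0.16, adjusted p = 0.589). The third probe was well above background on 7 of 16 arrays and was not tested.

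Cers2 encodes the ceramide synthase that prefers very long acyl chains, the chains typical of myelin ceramide. It read 0.32, 0.00 and -0.52 on the untreated arrays, -1.09, -2.92 and -1.72 at 2 weeks and -2.75, -1.54, -1.02 and -2.17 at 4 weeks. All 7 CPZ arrays lay below the untreated range. The difference was -1.84 at 2 weeks (SE 0.54, limma adjusted p = 0.219) and -1.80 at 4 weeks (SE 0.51, adjusted p = 0.202), or 27.9 and 28.7% of untreated. The other ceramide synthases with a tested probe, Cers4, Cers5 and Cers6, differed by 0.01, 0.12 and 0.23 at 2 weeks and by 0.22, -0.33 and -0.01 at 4 weeks.

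Degs1 encodes the desaturase that turns dihydroceramide into ceramide. It read 0.83, 0.00 and -0.27 on the untreated arrays and -0.45, -1.09 and -0.86 at 2 weeks, all below untreated. At 4 weeks it read -0.97, -0.33, -0.13 and -0.72, and array 3 lay inside the untreated range. The difference was -0.98 at 2 weeks (SE 0.34, limma adjusted p = 0.319) and -0.72 at 4 weeks (SE 0.32, adjusted p = 0.485). Untreated array 1 was the highest of the 16 for this gene, and without it the differences were -0.66 and -0.40. Degs2, which also hydroxylates, stood at 0.91 and 0.55.

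Fa2h encodes fatty acid 2-hydroxylase, which makes the hydroxylated fatty acids of myelin galactolipids. It read 0.66, 0.00 and -0.70 on the untreated arrays, -2.18, -4.79 and -3.37 at 2 weeks and -4.47, -2.40, -2.11 and -3.38 at 4 weeks. The CPZ arrays differed widely among themselves at each time, and even the highest of them stood well below the lowest untreated array. The group means were -0.01 ± 0.68 (SD, n = 3), -3.45 ± 1.31 (SD, n = 3) and -3.09 ± 1.07 (SD, n = 4). The difference was -3.44 at 2 weeks (SE 0.76, limma adjusted p = 0.11) and -3.08 at 4 weeks (SE 0.71, adjusted p = 0.119), or 9.24 and 11.8% of untreated.

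Ugt8a encodes UDP-galactose ceramide galactosyltransferase, the enzyme that makes galactocerebroside and whose upstream sequence is shown above. Its brightest probe read 0.40, 0.00 and -0.79 on the untreated arrays, -1.83, -4.47 and -3.21 at 2 weeks and -4.65, -1.94, -1.71 and -2.84 at 4 weeks. Array 2 at 2 weeks and array 1 at 4 weeks were the lowest, and no CPZ array reached the untreated range. The difference was -3.04 at 2 weeks (SE 0.85, limma adjusted p = 0.192) and -2.66 at 4 weeks (SE 0.79, adjusted p = 0.231), or 12.2 and 15.9% of untreated. The second probe stood at -2.96 and -2.41, again with all CPZ arrays below untreated. Ugcg, which attaches glucose to the same ceramide, stood at -0.06 and 0.13.

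Gal3st1 encodes the sulfotransferase that turns galactocerebroside into sulfatide. It read 0.55, 0.00 and -0.57 on the untreated arrays, -1.91, -3.40 and -2.27 at 2 weeks and -3.00, -0.94, -0.85 and -1.80 at 4 weeks. The arrays at 4 weeks reached closer to the untreated range than those at 2 weeks, and 3 of 4 lay above all 2-week arrays. The difference was -2.52 at 2 weeks (SE 0.61, limma adjusted p = 0.134) and -1.64 at 4 weeks (SE 0.57, adjusted p = 0.328). Between the 2 times it was 0.88 (SE 0.57, 95% CI -0.40 to 2.17, adjusted p = 0.531), which did not pass the test.

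Aspa encodes aspartoacylase, which frees acetate from N-acetylaspartate in oligodendrocytes for lipid synthesis. Its brightest probe read 0.14, 0.00 and -0.64 on the untreated arrays, -2.24, -5.48 and -3.62 at 2 weeks and -3.92, -2.55, -2.35 and -3.28 at 4 weeks. The value of -5.48 was the lowest of any member on any array. The difference was -3.61 at 2 weeks (SE 0.74, limma adjusted p = 0.0895), the lowest adjusted p of the 9 genes at either time by their brightest probes, and -2.86 at 4 weeks (SE 0.69, adjusted p = 0.129). The second probe stood at -2.50 (adjusted p = 0.0606) and -2.21 (adjusted p = 0.0711), and on array 2 at 2 weeks it read -3.33, 2.15 above the first. Nat8l, which makes N-acetylaspartate in neurons, stood at -0.30 and 0.26, and the acetyl-CoA synthetase Acss2 at -0.68 and -0.61.

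**Figure D2:**
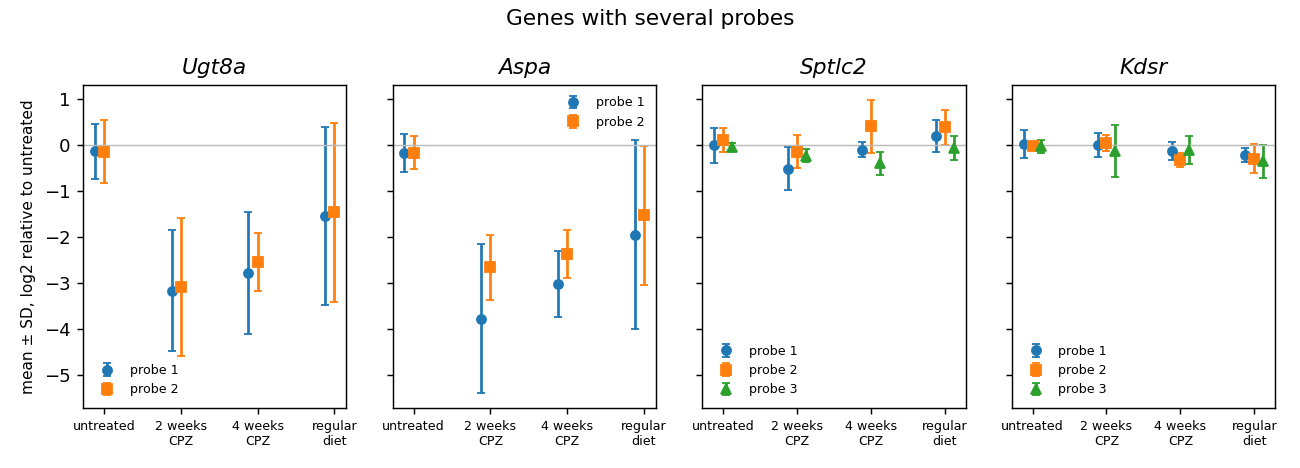
Mean ± SD of the log2 value relative to the untreated median, by group, for the 4 genes with more than 1 probe, with a symbol for each probe. Both Ugt8a probes lay near -3 at 2 weeks, the Aspa probes at -3.78 and -2.66, and all probes of Sptlc2 and Kdsr between -0.51 and 0.42 on average in every group.

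**Figure D3:**
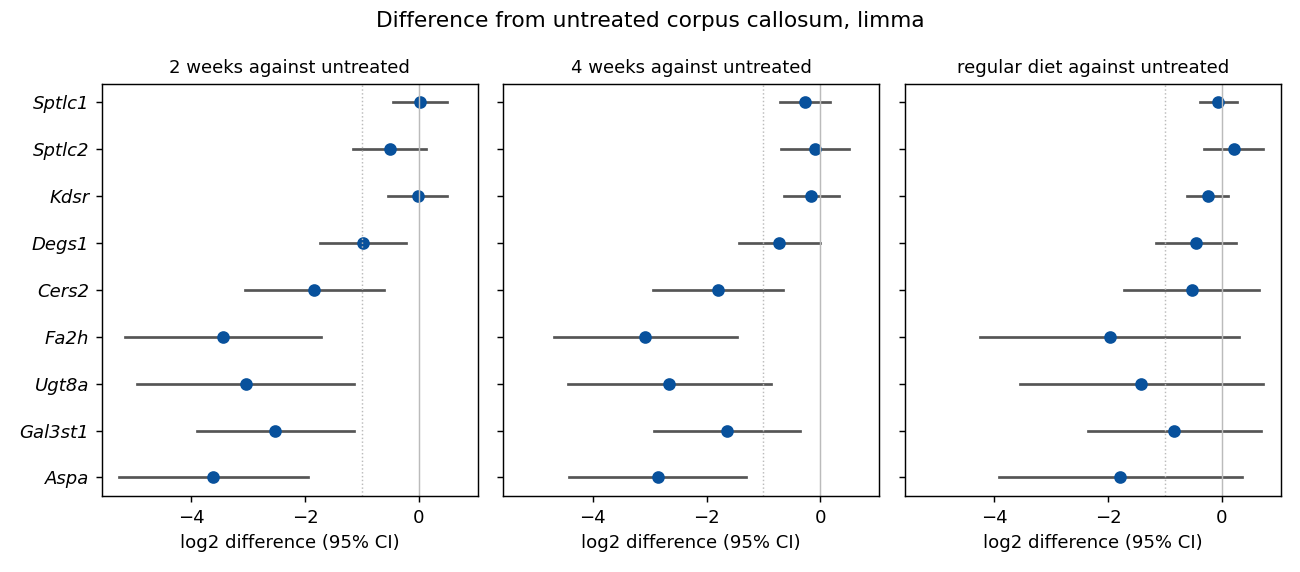
Log2 difference from the untreated group (horizontal axis) with its 95% confidence interval from limma, for each of the 9 genes, with a panel for each of the 2-week, 4-week and regular diet groups. The dotted line marks a 2-fold lower level, and the intervals of Cers2, Fa2h, Ugt8a, Gal3st1 and Aspa lay below 0 at both CPZ times but not on regular diet.

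Within the arrays the genes kept close to one order. With the brightest probe of each gene, the largest difference at 2 weeks was that of Aspa, followed by Fa2h, Ugt8a, Gal3st1, Cers2, Degs1, Sptlc2, Kdsr and Sptlc1. The second Aspa probe, at -2.50, would stand after Gal3st1. Aspa differed from Fa2h by -0.18 ± 0.32 (SD, n = 3) and Ugt8a from Gal3st1 by -0.52 ± 0.63, within their spread. Fa2h was below Ugt8a by 0.39 ± 0.10 and Gal3st1 below Cers2 by 0.68 ± 0.18, on 3 of 3 arrays each. At 4 weeks Fa2h, Aspa and Ugt8a again came first, with neighbours 0.22 ± 0.35 and 0.20 ± 0.65 apart (SD, n = 4), and Cers2 then stood before Gal3st1, 0.16 ± 0.36 apart. These gaps are descriptions with no test.

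The order of arrays was shared as well. Across the 16 arrays, which hold the group differences, Ugt8a correlated with Fa2h at r = 0.988, with Aspa at 0.973 and with Cers2 at 0.955, and with Sptlc1 and Sptlc2 at 0.481 and 0.284. Among 13973 genes, those named as most like Ugt8a by Pearson's r were Lpar1 (0.993), Cldn11 (0.991), Prr18 (0.987) and Adamts4 (0.986), and those most like Fa2h were Lpar1 (0.995), Tprn (0.990), Mal (0.988), Plekhh1 (0.988) and Adamts4 (0.987).

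Markers of myelinating oligodendrocytes, among them Mbp, Mog, Mag and Cnp, lay lower together with these genes. The 9 on the array were well above background on 15 or 16 arrays. Of the 10 markers, 9 were tested, and all 9 were lower at 2 weeks (median -3.30, every CPZ array below every untreated array for 9 of 9) and at 4 weeks (median -2.75, 8 of 9), with 0 called by limma and 9 and 8 at an unadjusted p under 0.05. By array, the median of the list ran from -0.68 to 0.39 in the untreated group, from -4.88 to -1.97 at 2 weeks and from -4.66 to -1.63 at 4 weeks. The difference of a member from this median on the same array was -0.03 ± 0.07, 0.27 ± 0.13 and -0.09 ± 0.15 for Ugt8a in the 3 groups, and 0.08 ± 0.16, -0.01 ± 0.18 and -0.39 ± 0.41 for Fa2h. For Cers2 it was 0.03 ± 0.11, 1.54 ± 0.57 and 0.83 ± 0.77, and for Gal3st1 0.09 ± 0.08, 0.92 ± 0.75 and 1.05 ± 0.43, so both stood above the median of the markers under CPZ. The highest single markers came close to Gal3st1 at 2 and 4 weeks, and to Cers2 at 4 weeks only. At 2 weeks Cldn11 differed from untreated by -2.59, next to -2.52 for Gal3st1, whereas Cers2, at -1.84, stood above every marker. At 4 weeks Cnp differed by -1.68, between -1.64 for Gal3st1 and -1.80 for Cers2. The part of the markers in the result was not tested, and in bulk tissue fewer oligodendrocytes and less RNA of a gene per oligodendrocyte cannot be told apart.

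**Figure D4:**
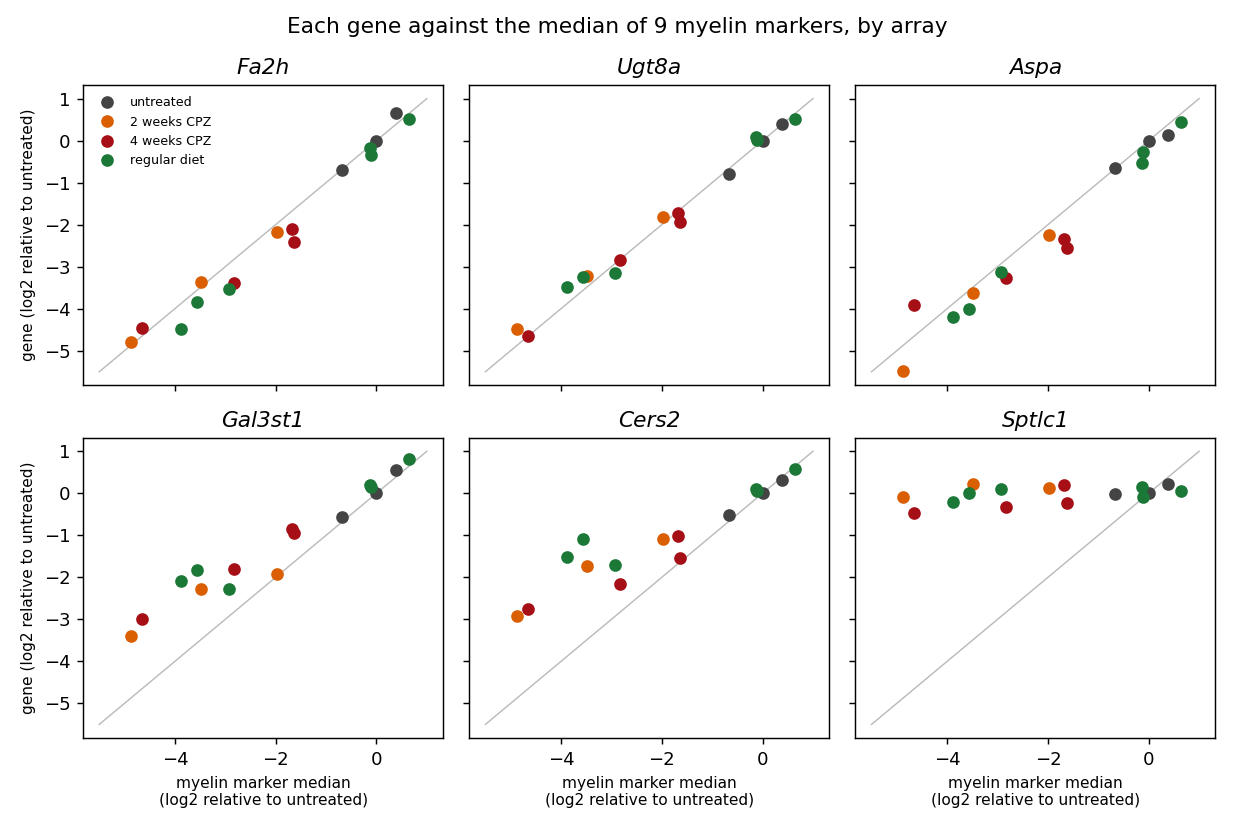
Log2 value of 6 genes relative to untreated (vertical axis) against the median of 9 myelin markers on the same array (horizontal axis), with 1 point for each of the 16 arrays and the line of equal values in grey. Fa2h and Ugt8a lay along the line, Gal3st1 and Cers2 above it at low marker levels, and Sptlc1 stayed near 0 while the markers reached -4.88.

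Lists of other cells were read on the same arrays, with 0 called by limma at either time. Of all 27499 probes, 2570 at 2 weeks and 2772 at 4 weeks had an unadjusted p under 0.05. Of these, 1397 and 1382 were lower. Microglial markers (7 tested) had a median of 0.76 at 2 weeks and 1.69 at 4 weeks, and 3 and 5 of them were higher at an unadjusted p under 0.05. The 6 astrocyte markers had medians of 0.49 and 0.48, and 3 of them (Gfap, Slc1a3 and Aldh1l1) were higher at that level at both times. At 2 weeks 2 of the 6 lay below 0 (Slc1a2 -0.52 and Aqp4 -0.46), and at 4 weeks 1 did (Slc1a2 -0.10). The 5 precursor markers had medians of -0.31 and -0.23, with 1 lower at that level at 2 weeks (Bcas1, -1.96) and 0 at 4 weeks. Neuronal markers (6 tested) had medians of -0.32 and 0.40, endothelial markers (4) -0.22 and -0.03, and red blood cell markers (2) -0.22 and 0.29, each with 0 at an unadjusted p under 0.05. The 4 choroid plexus markers were above background on all 16 arrays, and their median by array ran from -2.08 to 3.44 over the 16 arrays, both ends at 4 weeks. Within the 2-week group and within the 4-week group, the arrays stood in the same order for the median of these 4 markers and for Ugt8a. This order ran from array 2 to array 1 at 2 weeks and from array 1 to array 3 at 4 weeks. In the untreated and regular diet groups the arrays did not stand in the same order. The part of choroid plexus RNA in the values was not tested.

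Other genes of sphingolipid metabolism and acetate supply were followed as a list of 51, of which 49 were on the array and 47 were tested. limma called 0 of them in any comparison. At an unadjusted p under 0.05, 6 were lower and 1 higher at 2 weeks, and 5 were lower and 6 higher at 4 weeks. Of all 27499 probes, 5.08 and 5.03% were lower at that level. In either direction, 2570 and 2772 probes were at it. The median of the 47 genes was -0.06 and 0.04. Those at the lowest p at 2 weeks were Mal, a proteolipid that binds sulfatide (-3.91, SE 0.76, adjusted p = 0.0814), sphingosine kinase Sphk1 (1.84, SE 0.38, adjusted p = 0.0928), the neutral ceramidase Asah2 (-1.44, adjusted p = 0.0959) and Elovl1, which elongates fatty acids to the length that Cers2 uses (-1.34, adjusted p = 0.132). At 4 weeks they included Mal (-3.50, adjusted p = 0.0918), Elovl1 (-1.29, adjusted p = 0.118) and Ormdl3, an inhibitor of serine palmitoyltransferase (0.58, adjusted p = 0.243). For each of these the CPZ arrays did not overlap with untreated. Mal is also one of the myelin markers. The enzymes that break down the finished lipids, Galc for galactocerebroside and Arsa for sulfatide, stood at -0.22 each at 2 weeks and at 0.51 and -0.15 at 4 weeks, none at an unadjusted p under 0.05.

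The difference between 4 and 2 weeks of CPZ ran from -0.29 for Sptlc1 to 0.88 for Gal3st1 over the 9 genes, with a median of 0.36. limma called 0 of 9, where 0.0109% of all probes were called, and 0 had an unadjusted p under 0.05, where 10.5% of all probes did. The groups overlapped for all 9, where 8.36% of probes had every 4-week array below and 5.47% above every 2-week array. The median rests on single arrays: it was -0.27 without array 2 of the 2-week group, 0.13 without array 2 and 0.03 without array 3 of the 4-week group, and 0.57 without array 1 of the 2-week group. This comparison and the pair against untreated share arrays. Of the other pathway genes, Sphk1 (-1.16), Asah2 (0.69), the alkaline ceramidase Acer2 (-1.27) and the neutral sphingomyelinase Smpd3 (0.47) had the lowest p, with limma adjusted p from 0.391 to 0.471 and overlapping arrays. The second Kdsr probe was lower at 4 weeks on 4 of 4 arrays, by 0.36 (SE 0.16, adjusted p = 0.471).

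On regular diet the arrays spread over the ranges of the other groups. Ugt8a read -3.50, -3.25, -3.15, 0.02, 0.09 and 0.52 on arrays 1 to 6, in the numbering of the labels, with a median of -1.57. Arrays 1, 2 and 3 lay in the range of the CPZ arrays and arrays 4, 5 and 6 at or above the untreated median. Fa2h had its lowest value at -4.49, its median at -1.94 and its highest at 0.51, Aspa at -4.19, -1.83 and 0.43, Gal3st1 at -2.28, -0.84 and 0.81, and Cers2 at -1.71, -0.52 and 0.59. For each of these 4 genes arrays 1, 2 and 3 were the lower 3. The median of the myelin markers was -3.88, -3.57 and -2.92 on arrays 1 to 3 and -0.12, -0.13 and 0.65 on arrays 4 to 6, and that of the microglial markers was 4.05 and 4.48 on arrays 1 and 2 and between 1.45 and 1.76 on the other 4. Sptlc1 stayed between -0.20 and 0.15. Sptlc2 read 0.51 and 0.71 on arrays 1 and 2, -0.28 on array 3 and between 0.01 and 0.19 on the others. Kdsr lay between -0.43 and -0.10 with its brightest probe, and its second probe read -0.56 and -0.81 on arrays 1 and 2 and between -0.24 and -0.02 on the others. Which arrays came 2 days and which 14 days after CPZ is not given by the labels, and no split of the group was tested.

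As 1 group against untreated, the differences on regular diet were -1.97 for Fa2h (SE 1.06, limma adjusted p = 0.52), -1.78 for Aspa (SE 1.00, adjusted p = 0.528) and -1.42 for Ugt8a (SE 1.00, adjusted p = 0.593). Gal3st1 stood at -0.84, Cers2 at -0.53 and Degs1 at -0.45, each with an interval that held 0. limma called 0 of 9, where 0.803% of all 27779 probes were called, and 0 had an unadjusted p under 0.05, where 10.6% of probes did. At least 2-fold lower were 3 of 9, against 1.12% of probes. Against 4 weeks of CPZ, 8 of 9 genes were higher, with a median of 0.80 where that of all probes was 0.01. limma called 0 of 9 (0.0036% of all probes were called). Cers2 was the 1 member at an unadjusted p under 0.05, with a difference of 1.27 (SE 0.50, 95% CI 0.19 to 2.35, adjusted p = 0.152), against 13.3% of probes that were higher at that level, and 3 of 6 arrays lay above all 4-week arrays. In the same comparison the 9 myelin markers had a median of 1.07, the 7 microglial markers of 0.82, the 6 neuronal markers of -0.72 (6 of 6 below 0, 3 at an unadjusted p under 0.05) and the 4 choroid plexus markers of -0.86 (4 of 4 below 0). The part of these cells in the result was not tested. Over all probes, 10.6% differed from untreated at an unadjusted p under 0.05. Among the 47 other pathway genes tested, 7 were higher and 1 lower than untreated at that level. Those with the lowest p included the ganglioside activator Gm2a, the alkaline ceramidase Acer3 and the sphingosine phosphate lyase Sgpl1, at 0.97, 0.88 and 0.97 (limma adjusted p from 0.319 to 0.391). Against 4 weeks they were the lactosylceramide synthases B4galt6 (-0.75, adjusted p = 0.102) and B4galt5 (-0.74, adjusted p = 0.115), Ormdl3 (-0.44, adjusted p = 0.107) and Elovl1 (1.02, adjusted p = 0.11). In all, 7 of the 47 tested lay lower and 3 higher with an unadjusted p under 0.05. Over all 27779 probes, 6869 were at that level in either direction, and 13.3% were higher. This pair of comparisons shares the regular diet arrays, and the first shares the untreated arrays with the CPZ comparisons.

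The 16 arrays lay on 4 slides, and the slides held different groups together. With the slide as a fixed block the median of the 9 genes was -2.09 at 2 weeks, -1.38 at 4 weeks, -0.34 on regular diet against untreated and 0.51 against 4 weeks, with 0 called. Within slides the median was -1.72 at 2 weeks (slide 1), -0.85 and -2.23 at 4 weeks (slides 2 and 3), 1.06 for 4 against 2 weeks (slide 4), -0.41, -0.25 and -0.19 on regular diet against untreated (slides 1, 2 and 3) and 0.35, 1.56 and -0.15 against 4 weeks (slides 2, 3 and 4). With the slide as a random block the call for Aspa, 2 weeks against untreated, passed, with a difference of -3.70 (limma adjusted p = 0.0421). In that comparison the random block called 1.13% of all probes, against 0.193% without a block.

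The direction of these results rests on the assignment of arrays through the column names. With the scanner files taken as recorded, the median of the 9 genes was 0.69 at 2 weeks and 0.46 at 4 weeks against untreated, and -1.70 on regular diet against 4 weeks, with 0 members called by limma. Ugt8a then stood at 1.15 and 0.57 at the CPZ times. With the scanner signals of the files matched to the columns, 5 of 9 genes were at least 2-fold lower at both times, as in the table. From the same experiment, the paper lists Cers2, Elovl1 and Mog as down in demyelination. It lists Gal3st1, Mag and Mbp as down in early remyelination.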

How the data were processed

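Single-colour Agilent 4x44K mouse arrays of 16 corpus callosum samples were used, grouped by the labels. Scanner files hold background-subtracted intensity values that the authors extracted with Agilent Feature Extraction (version 11.0.1.1 per the submitters' processing notes). The deposited value table holds log2 values that the authors scaled to the 75th percentile in GeneSpring. Its baseline, the median of the 3 untreated columns, was found from the values: 100% of probes had that median at 0. These log2 values were the main measure. The scanner files, matched to the columns by correlation, gave background flags and alternatives.

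Probes that the scanner marked as well above background on all arrays of 1 group or more were tested with limma 3.58.1 (R 4.3.3, statmod 1.5.0): 27499 probes in a fit of the untreated, 2-week and 4-week groups (10 arrays) and 27779 in a fit of all 16. A probe was called at a Benjamini-Hochberg adjusted p under 0.05 over all probes and at least a 2-fold difference. The named genes are the 9 members, each by its brightest tested probe, the 4 of the pathway list with the lowest p in each comparison, and the 5 genes most like Ugt8a and Fa2h. Some genes that this rule names are not reported here. Cers4, Cers5, Cers6, Degs2, Ugcg, Nat8l, Acss2, Galc and Arsa were named after their values were seen, for their place beside a member. The members and lists were chosen with earlier results of these data known. Probes were matched by accession to RefSeq (GRCm38.p6), which named 27459 probes (66.72%). The fits were tested on simulated data. Alternatives were the methods' test (on the same values, analysis of variance over the groups of the fit with Benjamini-Hochberg adjustment, then Tukey's test for the pair and 2-fold), other normalizations, filters, blocks, array weights, array sets and file assignments, and leaving out each array. The normexp correction used the median signal of each spot, with an offset of 50.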

Additional observations from a re-analysis of the deposited data

How the results depend on the processing

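Precision was limited by 3 to 6 arrays a group. Under every alternative with the arrays taken by column name, Cers2, Fa2h, Ugt8a, Gal3st1, Aspa and Degs1 lay below untreated at both CPZ times. Calls depended on the setting, and the cause was not tested. Array weights, whose estimation stopped before it converged, called 5 members at 2 weeks, 5 at 4 weeks and 1 on regular diet against 4 weeks, where they called 6.37, 6.91 and 5.63% of all probes. At 2 weeks normexp called 1 (0.354% of probes) and the slide as a random block 1 (1.13%), and at 4 weeks only the 2 groups compared called 1 (Aspa; 0.868%). The count of members at least 2-fold lower was added after the data were seen. On regular diet against untreated it was 3 (1.12% of probes), against 0 with array weights (0.464%), 5 with the replicate block (3.02%) and 5 with files as recorded (2.08%). Leaving out each array left 0 members called in every comparison, with medians from -2.25 to -1.34 (2 weeks), -1.92 to -1.19 (4 weeks), -0.27 to 0.57 (4 against 2 weeks), -0.77 to -0.34 (regular diet against untreated) and 0.35 to 1.09 (regular diet against 4 weeks).

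With files as recorded, 0 members were at least 2-fold lower at 2 weeks, 0 at 4 weeks and 5 on regular diet against 4 weeks (0.291, 0.893 and 3.12% of probes), with medians of 0.69, 0.46 and -1.70. At 2 weeks the values were Aspa 1.17, Cers2 0.69, Degs1 0.29, Fa2h 0.98, Gal3st1 1.24, Sptlc1 -0.13, Sptlc2 0.15 and Ugt8a 1.15. At 4 weeks they were Aspa 0.62, Cers2 0.46, Fa2h 0.46, Gal3st1 0.67, Sptlc2 0.13 and Ugt8a 0.57. For 4 against 2 weeks they were Aspa -0.55, Cers2 -0.24, Degs1 -0.32, Fa2h -0.52, Gal3st1 -0.57, Sptlc2 -0.026 and Ugt8a -0.58. On regular diet they were Aspa -2.46, Cers2 -1.72, Degs1 -0.59, Fa2h -2.67, Gal3st1 -1.70, Sptlc1 -0.24, Sptlc2 -0.30 and Ugt8a -2.44 against 4 weeks, and Sptlc2 -0.18 against untreated.

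Other signs changed too. At 2 weeks Kdsr was 0.26 with array weights, 0.042 with quantile normalization and 0.051 with its lowest-p probe, and Sptlc1 -0.019 with normexp and -0.0061 with the slide as a fixed block. At 4 weeks the fixed block gave Kdsr 0.0497 and Sptlc2 0.22, and the random block Sptlc2 0.032. For 4 against 2 weeks Cers2 was -0.40 with array weights and -0.0079 with quantile normalization, and Kdsr 0.15 with the fixed block. On regular diet against untreated, array weights gave Cers2 0.17, Degs1 0.16, Gal3st1 0.15, Kdsr 0.031 and Sptlc1 0.0335, and centring gave Sptlc1 0.0053. Against 4 weeks Kdsr was 0.053 with array weights, and the median within slide 4 was -0.15. Leaving out 1 array changed the sign of Sptlc1 (-0.051 to 0.10) and Kdsr (-0.16 to 0.14) at 2 weeks, of Sptlc2 (-0.29 to 0.10) and Kdsr (-0.30 to 0.0012) at 4 weeks, of Sptlc1 on regular diet against untreated (-0.10 to 0.0068) and Kdsr against 4 weeks (-0.16 to 0.0015). For 4 against 2 weeks, Ugt8a ran from -0.27 to 1.06, Fa2h from -0.31 to 0.99, Cers2 from -0.47 to 0.45 and Aspa from -0.095 to 1.53, each negative without array 2 of the 2-week group.

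Deviations of same-numbered arrays correlated from -0.81 to 0.34, so the numbers do not pair the samples. With the replicate block 0 members were called, and the medians were -1.84, -1.59, 0.40, -1.14 and 0.13 in the order of comparisons above. Over all probes, calls at 2 weeks, 4 weeks, 4 against 2 weeks, regular diet against untreated and against 4 weeks were 53, 48, 3, 223 and 1. They were 0, 0, 0, 24 and 0 with the replicate block, 1752, 1900, 2487, 1070 and 1564 with array weights, 123, 479, 0, 266 and 0 with the slide as a fixed and 310, 415, 4, 328 and 8 as a random block, 97, 50, 0, 41 and 0 with normexp, 67, 20, 3, 163 and 326 with quantile normalization, 50, 21, 4, 200 and 4 with centring, 88, 64, 0, 115 and 0 with the filter on every array, 46, 13, 5, 184 and 8 with no filter, 0, 207, 24, 159 and 49 with only the 2 groups compared, 0, 0, 0, 12 and 4 with the methods' test, and 0 in all with files as recorded. They ran from 1 to 72, 0 to 146, 0 to 36, 5 to 242 and 0 to 1549 without 1 array, and with all 16 arrays the first 3 were 26, 3 and 58. Of the 53 calls at 2 weeks 19 were higher, against 16 of 97 with normexp, 26 of 26 with all 16 arrays, 82 of 123 with the slide as a fixed block, 142 of 310 as a random block and 1067 of 1752 with array weights. Of the 48 at 4 weeks 25 were higher, against 18 of 50 with normexp, 9 of 21 with centring, 3 of 3 with all 16 arrays, 417 of 479 and 282 of 415 with the fixed and random blocks, and 9 of 13 with no filter. Of the calls on regular diet against 4 weeks 1 of 1 was higher, against 154 of 326 with quantile normalization.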
